A study of Mus musculus with 4 samples.

Results

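Mir183, Mir96 and Mir182 are 3 miRNA genes that lie close together on mouse chromosome 6 and are read as a single precursor RNA, a polycistron. They were found by joining the gene IDs of the deposited table to RefSeq (GRCm38.p6), and all 3 had a row among the 2976 rows, of which 643 were miRNA genes. The table describes small RNA of peri-wolffian stroma that expresses Tbx18, taken from E10.5 embryos of CD1 mice. The wolffian duct is the epithelial tube that gives rise to the ureteric bud. The cells carried Tbx18-Cre and CAG-tdTomato and were collected by flow sorting. Tbx18 regulatory sequence drives Cre in this model, so red cells are those in which it has been active and their descendants. The series has 4 libraries of this 1 genotype and stage, so levels could be compared between genes and between libraries but not between conditions. The labels name no embryo, litter or pool behind a library, and every spread and p-value therefore measures the spread between these libraries, which may be technical.

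A miRNA gene is transcribed as a long precursor, cut to a hairpin and then to a mature strand that guides silencing of messenger RNAs. Recognition rests mainly on the seed, bases 2 to 8 of the mature strand. This cluster is known for its expression in sensory cells, among them hair cells of the inner ear, photoreceptors, olfactory neurons and sensory neurons of dorsal root ganglia. Changes in the seed of miR-96 cause progressive hearing loss in mice and in people. The cluster is also expressed in some epithelia, and no role of it in peri-wolffian stroma is given in the labels.

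The mature 5p strands are shown because the rows are hairpin genes and the 3 products are near-copies of each other at the seed. All sequences are RefSeq's on GRCm38.p6, written 5′ to 3′, and the capitals mark the seed.
mmu-miR-183-5p: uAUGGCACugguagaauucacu
mmu-miR-182-5p: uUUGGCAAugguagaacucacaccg
mmu-miR-96-5p: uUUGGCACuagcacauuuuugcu
mmu-miR-1271-5p: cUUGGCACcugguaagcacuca
Positions were counted from 1 at the 5′ end, with the base of the strand named before it given first in each difference. Between miR-183-5p and miR-182-5p, 18 of 22 positions were identical, and the differences were A2U, C8A, U17C and U22A. The strand miR-183-5p matched miR-96-5p at 13 of 22 positions, with A2U the only difference inside the seed. Against miR-96-5p, miR-182-5p matched at 12 of 23 positions, with A8C the only seed difference. Mir183, Mir182 and Mir96 thus carry 3 different seeds that differ pairwise at 1 or 2 bases. Among 1679 mature mouse miRNAs in the sequence table, no other had the 5p seed of miR-183 or of miR-182, and 1 other, miR-1271-5p, had that of miR-96. The miR-1271 gene, on chromosome 13, was not analysed here.

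The hairpins are shown because the deposited values were divided by gene length, which differs between the 3 genes. Capitals mark the 5p mature strand.
Mir183 hairpin: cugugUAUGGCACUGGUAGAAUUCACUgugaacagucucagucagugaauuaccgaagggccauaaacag
Mir182 hairpin: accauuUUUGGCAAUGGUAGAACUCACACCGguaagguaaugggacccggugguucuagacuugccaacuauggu
Mir96 hairpin: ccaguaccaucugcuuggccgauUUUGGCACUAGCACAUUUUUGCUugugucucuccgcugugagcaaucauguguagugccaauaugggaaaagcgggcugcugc
Mir183 (gene ID 387178) is 70 nt long and lies at chr6:30169668-30169737, on the minus strand. Mir96 (gene ID 723886) is 106 nt long and lies at chr6:30169446-30169551 on the same strand. Mir182 (gene ID 387177) is 75 nt long and lies at chr6:30165918-30165992, again on the minus strand. In the direction of transcription Mir183 comes first, Mir96 follows after 116 bases and Mir182 after another 3453 bases. RefSeq places all 3 within the span of the long non-coding RNA Mirc35hg (chr6:30158640-30174125), also on the minus strand. Its exons were not analysed here, and in GENCODE vM21 the hairpins overlap no gene other than themselves. No other row with a RefSeq position overlapped any of the 3. Only 2541 of the 2976 rows matched RefSeq, so an overlap with an unmatched row could not be checked.

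**Figure D1:**
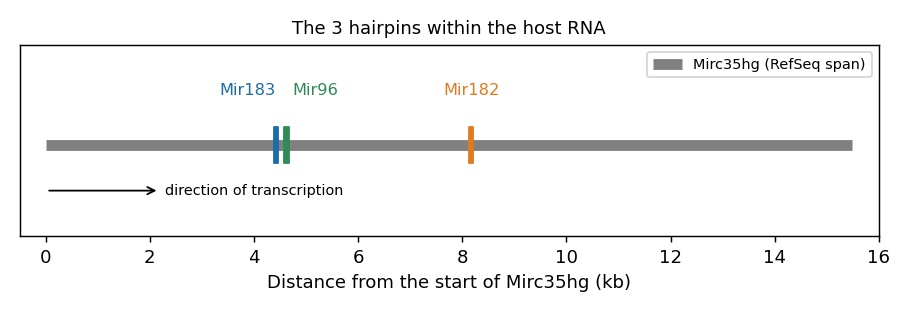
Position of the hairpins of Mir183, Mir96 and Mir182 (coloured blocks) along the RefSeq span of Mirc35hg (grey bar), in kb from its start. Mir183 and Mir96 lie side by side with 116 bases between them, and Mir182 lies 3453 bases further on.

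The promoter of the host RNA is shown because all 3 genes lie within the span of that RNA. Whether this promoter drives them here was not tested. The window runs from 250 bases before to 50 bases after the annotated start of Mirc35hg, at chr6:30174076-30174375 of GRCm38.p6 on the minus strand, and capitals mark matches to GGGCGG on either strand, the core of the GC box.
Mirc35hg promoter: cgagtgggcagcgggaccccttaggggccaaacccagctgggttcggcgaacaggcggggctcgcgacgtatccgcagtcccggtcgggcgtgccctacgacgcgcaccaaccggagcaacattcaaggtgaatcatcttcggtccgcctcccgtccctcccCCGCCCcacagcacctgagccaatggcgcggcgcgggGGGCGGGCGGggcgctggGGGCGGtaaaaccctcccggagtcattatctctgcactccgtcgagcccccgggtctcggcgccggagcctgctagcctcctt
The window held 4 matches to GGGCGG, counting both strands, of which 2 overlap. Of 32851 promoter windows of the same length, 35.7% held at least 1 such match and 5.49% held at least 4. It held 35 CG dinucleotides, a number reached in 6.95% of windows. E-boxes (CANNTG, a palindrome counted once) numbered 2, with at least 1 in 72.3% of all windows. The letters TATAAA, present on either strand in 13.6% of windows, did not occur. These matches describe letters in a window and do not show that a factor binds there.

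The unit of the table is TPM, in which reads are divided by the length of their gene before each library is brought to a common total. The rows held 4.94%, 7.22%, 7.11% and 2.33% of that total in libraries 1 to 4, so each gene is also given as a share of the summed miRNA TPM. Multiplying TPM by gene length gave whole multiples of 1 constant per library, and hence reads, of which 883201, 1087240, 978210 and 146255 fell on miRNA genes in libraries 1 to 4. Library 4 was the shallowest. Library 3 stood apart in neural miRNAs, with a summed level of 3082 TPM for 9 genes, against 351, 37.6 and 98.1 TPM in libraries 1, 2 and 4. The mesenchymal list, Mir199a-1, Mir199a-2, Mir199b, Mir214, Mir143 and Mir145a, summed to 1511 ± 873 TPM (SD, n = 4). In it Mir199a-2 and Mir214 were listed at 0 in all libraries. The annotation and the assignment of reads to similar copies are not known, so a listed 0 need not mean absence and the sum could be affected. The messenger RNA of Tbx18, which defines these cells, was not analysed here.

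All 3 genes of the cluster were present in every library, and Mir183 was the highest, Mir182 close below it and Mir96 far lower. Mir183, whose miRNA has been studied in human cells as a repressor of the cytoskeletal linker ezrin, had 378, 106, 647 and 67.3 TPM in libraries 1 to 4. Mir182, whose miRNA represses Foxo1 in activated T lymphocytes of mice, had 288, 73.5, 507 and 35.6 TPM. Mir96, the member tied to hearing loss, had 15.1, 3.03, 37.8 and 3.94 TPM. For each gene libraries 1 and 3 were high and libraries 2 and 4 low, and Mir96 did not overlap the other genes' ranges except that its highest value, 37.8 TPM, lay just above the lowest of Mir182. The means were 299.5 ± 270 TPM for Mir183, 226 ± 218 for Mir182 and 15.0 ± 16.2 for Mir96 (SD, n = 4). Without library 3 these means were 184, 132 and 7.34 TPM, so each mean rests in good part on that library. All 3 reached 1 TPM in all 4 libraries, as did 33.1% of the 643 miRNA genes. In bulk RNA, a few cells with a high level and many cells with a low level cannot be told apart.

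In recovered reads the values rested on 6767, 1526, 8678 and 508 reads for Mir183 in libraries 1 to 4. Mir182 had 5516, 1133, 7287 and 288 reads. Mir96 had 408, 66, 769 and 45 reads, which makes its levels in libraries 2 and 4 the least certain. As a share of all miRNA reads, Mir96 was 0.00607% in library 2, with a 95% Wilson interval of 0.00477% to 0.00772%, and 0.0308% in library 4 (0.023% to 0.0412%). These intervals do not overlap, so the lower share in library 2 was beyond counting error, the only error they cover.

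As shares of the summed miRNA TPM, the cluster took 1.60%, 0.279%, 1.93% and 0.652% in libraries 1 to 4. Mir183 alone took 0.89%, 0.162%, 1.05% and 0.41%, or 0.627% ± 0.412 (SD, n = 4). Mir182 took 0.677%, 0.112%, 0.821% and 0.217%. Mir96 took 0.0354%, 0.00463%, 0.0613% and 0.024%. The 4 shares of the cluster spanned 6.92-fold, against 11.1-fold for its TPM. On this scale library 2 was the lowest for all 3 genes, where by TPM library 4 was the lowest for Mir183 and Mir182.

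**Figure D2:**
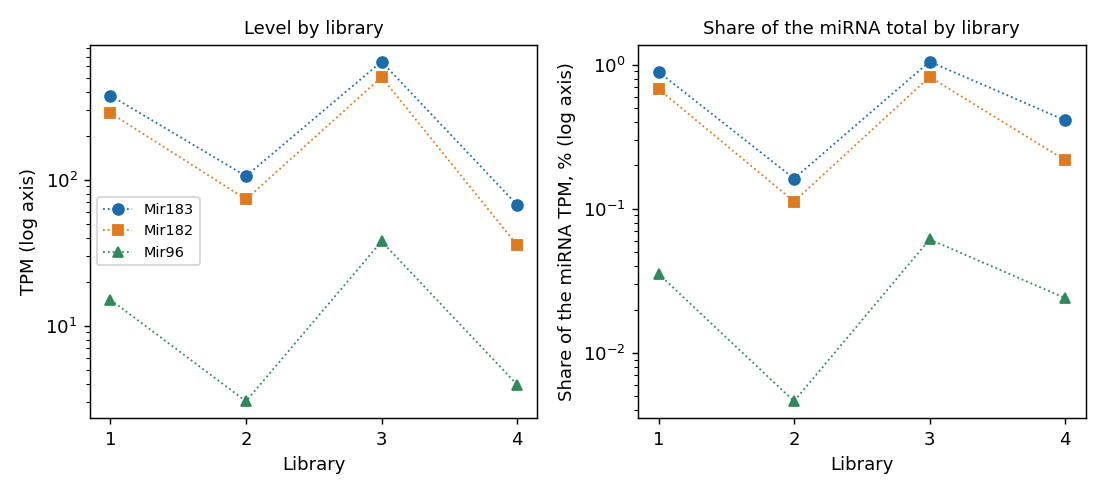
TPM (left, log axis) and share of the summed miRNA TPM in % (right, log axis) of Mir183, Mir182 and Mir96 in each of the 4 libraries. Each point is 1 library and the dotted lines only join the points of 1 gene; the 3 genes keep the order Mir183, Mir182, Mir96 in every library, and libraries 1 and 3 are high for all.

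Within the miRNA pool, Mir183 ranked 28, 71, 17 and 48 among 643 miRNA genes in libraries 1 to 4. Mir182 ranked 38, 89, 28 and 70, and Mir96 ranked 141, 219, 114 and 166. Each gene was also set against the median of the 273 miRNA genes with a mean of at least 1 TPM, as a log2 difference of TPM + 1 within each library. Mir183 lay above that median in 4 of 4 libraries, by 3.66 ± 1.22 log2 units (SD, n = 4; limma adjusted p = 0.000337). Mir182 lay above it in 4 of 4 libraries, by 3.12 ± 1.38 (SD, n = 4; limma adjusted p = 0.00129). Mir96 was not set apart from it, with a difference of -0.63 ± 1.39 (SD, n = 4; limma adjusted p = 0.289) and a level above the median in library 3 only. Of the 273 genes, 39.9% were called above the median and 37% below, so a call in this test is common. Without library 3, Mir96 was called below the median, at -1.37 log2 units (limma adjusted p = 0.0319). With only genes averaging at least 10 TPM, Mir182 missed the threshold at 1.34 log2 units (limma adjusted p = 0.0536). These p-values pool the spread of all genes over the same 4 libraries.

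By mean TPM, Mir183 stood at rank 32, between Mir17 of the miR-17/miR-92 cluster at 317 ± 281 TPM and Mir381 at 299 ± 120 TPM (SD, n = 4). Mir182 stood at rank 42, between Mir20a at 230 ± 212 TPM and Mir181b-2 at 224 ± 145 TPM. Mir96 stood at rank 142, between Mir27a at 15.9 ± 8.16 TPM and Mir377 at 14.9 ± 6.08 TPM. None of these 6 neighbours was on 1 side of its member in all 4 libraries, so these neighbours did not differ beyond their spread. Exact two-sided sign-flip permutation tests of the log2 ratios gave p = 0.625 for 5 of the 6 and p = 1.0 for Mir182 over Mir181b-2.

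The products of 1 precursor were present at unequal levels. Mir183 exceeded Mir182 in 4 of 4 libraries, with TPM ratios of 1.31, 1.44, 1.28 and 1.89 and a mean log2 ratio of 0.54 ± 0.25 (SD, n = 4). It exceeded Mir96 with TPM ratios of 25.1, 35.0, 17.1 and 17.1 and a mean log2 ratio of 4.29 ± 0.44. Mir182 exceeded Mir96 with TPM ratios of 19.1, 24.3, 13.4 and 9.05 and a mean log2 ratio of 3.74 ± 0.61. For each of the 3 pairs compared, the exact two-sided sign-flip permutation test gave p = 0.125, the smallest that 4 libraries allow, so no pair could pass 0.05. The longer Mir96 hairpin lowers its TPM, and in reads not divided by length Mir183 still exceeded Mir96 by 16.6, 23.1, 11.3 and 11.3 times. Ligation and amplification in small RNA kits also favour some miRNAs over others, so ratios between genes are relative.

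Of the reads on the 3 genes together, Mir183 took 53.3%, 56.0%, 51.9% and 60.4% in libraries 1 to 4. Mir182 took 43.5%, 41.6%, 43.5% and 34.2%, and its 95% Wilson interval in library 4, 31.1% to 37.5%, lay below the intervals of the other libraries. Mir96 took 3.21%, 2.42%, 4.60% and 5.35%. The interval of Mir96 in library 2, 1.91% to 3.07%, lay below those in library 3, 4.29% to 4.92%, and library 4, 4.02% to 7.08%, and overlapped that in library 1. The make-up of the cluster thus moved between libraries by more than counting error, while the order of the 3 genes did not change.

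**Figure D3:**
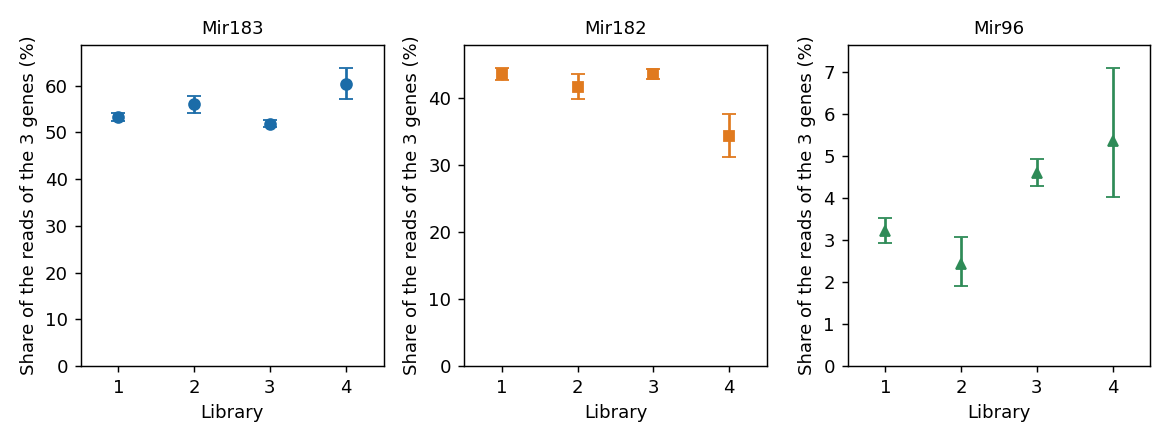
Share of the reads of Mir183, Mir182 and Mir96 together that fell on each gene (%), by library, with each vertical axis starting at 0 on its own scale. Bars are 95% Wilson intervals for counting error; Mir182 is lowest in library 4 at 34.2%, and Mir96 runs between 2.42% and 5.35%.

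The log2 ratio of Mir183 to Mir182 was among the more even ones in the table. Its SD over the 4 libraries was 0.25, and 3.17% of all 37128 pairs among the 273 miRNA genes had an SD at or below that. For Mir183 to Mir96 the SD was 0.44, with 13.1% of all pairs at or below it, and for Mir182 to Mir96 it was 0.61, with 26.8% at or below it. The median SD was 0.92 over all pairs. Other pairs of miRNA genes on 1 strand with starts within 10 kb, 283 in number, had a median SD of 0.58, and 38 of them were at or below Mir183 to Mir182, 103 at or below Mir183 to Mir96 and 152 at or below Mir182 to Mir96. These shares are descriptions, since genes in the same libraries are not independent. With a pseudocount of 10 TPM, which flattens low genes, the ratios of Mir183 and Mir182 to Mir96 had SDs of 0.67 and 0.85, and 50.4% and 65.3% of all pairs, and 204 and 250 of the 283 neighbouring pairs, were at or below them.

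**Figure D4:**
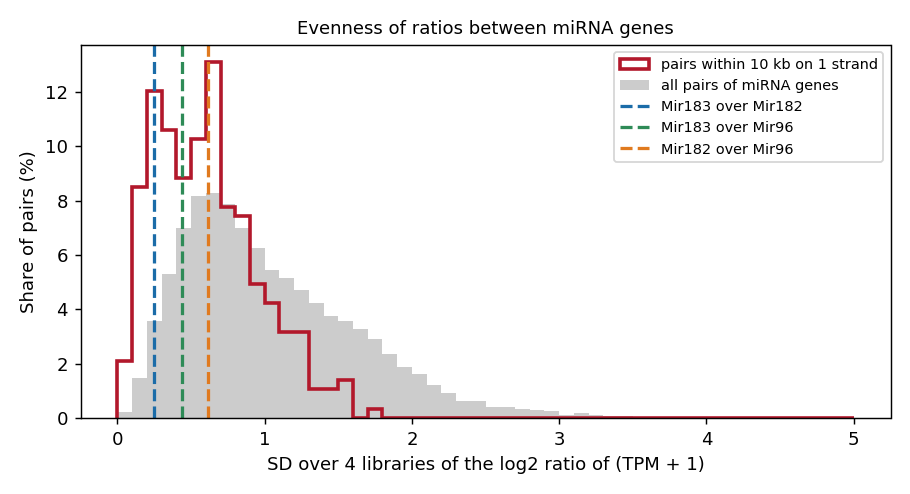
Distribution of the SD over the 4 libraries of the log2 ratio of TPM + 1 between 2 miRNA genes, as a share of pairs (%), for 283 other pairs within 10 kb on 1 strand (red outline) and all 37128 pairs (grey). Dashed lines mark the 3 pairs of the cluster at 0.25, 0.44 and 0.61.

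All 3 genes had their highest TPM in library 3, as did 41.8% of the 273 miRNA genes, so this alone says little about the cluster. Being highest in library 3 and second in library 1 held for all 3 and for 10.3% of the 273 genes. By share of the miRNA total the order of libraries was 3, 1, 4, 2 for all 3 genes, an order that 3.3% of the 273 genes had. Those 9 genes were Mir183, Mir182, Mir96, Mir9-3, Mir205, Mir9-1, Mir451a, Mir33 and Mir488. The order was chosen because the cluster has it, so its members support nothing by having it too.

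Likeness to the summed cluster was measured as the root mean square, over the 4 libraries, of the difference between log2(TPM + 1) profiles, each centred on its own mean. Mir183 and Mir182 make up most of the sum and were close to it by construction, at 0.085 and 0.13 log2 units. Mir96, which adds little to the sum, was at 0.42 and closer than any gene outside the cluster on this scale. Mir205, a miRNA of stratified and other epithelia, was the nearest of these at 0.47, with 34.8, 10.1, 70.7 and 12.1 TPM in libraries 1 to 4. Mir451a, an erythroid miRNA, followed at 0.49, with 3.64, 0.878, 11.2 and 0.902 TPM. Both follow the cluster's pattern of high values in libraries 3 and 1. Then came Mir499, known from an intron of a muscle myosin gene, at 0.72, Mir9-1, a copy of the neural miR-9, at 0.73, and Mir33, from an intron of Srebf2, at 0.74. These 3 genes had no more than 6 reads each in at least 1 library, and Mir451a had only 13 reads in library 2 and 7 in library 4. The ranks of genes outside the cluster depended on how low values were treated. Mir205 was at rank 1 or 2 with pseudocounts of 0.1 and 10 TPM, with rescaling to the miRNA total and with reads not divided by length. Mir451a ranked 21 with a pseudocount of 10 TPM, Mir499 ranked 122 with it, and Mir9-1 ranked 45 with a pseudocount of 0.1 TPM. Mir96 itself, at 0.69 with a pseudocount of 10 TPM, was then farther from the sum than Mir205 at 0.62, and at 0.44 with a pseudocount of 0.1 TPM farther than Mir451a at 0.40.

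Markers of other cell types of the region were read in the same libraries, since sorted cells can carry others with them. The neural list (Mir9-1, Mir9-2, Mir9-3, the 3 copies of Mir124a, both copies of Mir219a, and Mir137) had 8 of 9 genes above 0, and all 8 were highest in library 3 by TPM. Of the 273 miRNA genes averaging at least 1 TPM, 41.8% were highest there. Mir9-2, Mir124a-2 and Mir137 averaged less than 1 TPM and are outside those 273. Mir124a-1, of the neuronal miR-124, was listed at 0, while Mir124a-3 had 0.23, 0.143, 8.67 and 0.955 TPM in libraries 1 to 4. Mir9-3, of the neural progenitor miRNA miR-9, had 345, 35.2, 2861 and 78.3 TPM and made up most of the list's sum. The cluster exceeded the neural sum in libraries 1, 2 and 4 and lay below it in library 3, with log2 ratios of 0.96, 2.25, -1.37 and 0.12. The mean log2 ratio was 0.49 ± 1.52 (SD, n = 4; exact two-sided sign-flip permutation p = 0.625), or -0.10 without library 2. With the median over members averaging at least 1 TPM in place of the sum, which Mir9-3 dominates, it was 5.27 ± 1.01 (SD, n = 4; exact two-sided sign-flip permutation p = 0.125). Several members are copies of 1 miRNA, and Mir9-1 averaged 4.93 TPM against 830 TPM for Mir9-3. That median can therefore depend on how reads were assigned to similar copies, which is not known. Between library 2 and library 3 the neural sum thus spanned a wider range than the cluster.

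The epithelial list (Mir200a, Mir200b, Mir200c, Mir141, Mir429 and Mir205), markers of epithelial tubes, summed to 73.8, 46.3, 157 and 43.5 TPM in libraries 1 to 4. All 6 genes were above 0, and by TPM 5 of 6 were highest in library 3, Mir141 being the exception. Of the 273 miRNA genes averaging at least 1 TPM, 41.8% were highest there. As shares of the miRNA total the list had 0.174%, 0.0707%, 0.255% and 0.265%, so on that scale library 4 was the highest. The cluster exceeded the summed TPM of this list in 4 of 4 libraries, with a mean log2 ratio of 2.33 ± 0.88 (SD, n = 4; exact two-sided sign-flip permutation p = 0.125, the smallest possible), or 3.62 with medians over members. Its log2 ratios were 3.19, 1.96, 2.91 and 1.28, lowest in libraries 2 and 4, where the cluster was lowest.

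Erythroid Mir144 and Mir451a summed to 3.88, 0.878, 11.9 and 0.902 TPM. Both genes were highest in library 3, as were 41.8% of the 273 miRNA genes averaging at least 1 TPM. Mir144 averaged only 0.237 TPM. The pluripotent or germ cell list was Mir302a, Mir302b, Mir302c, Mir302d and Mir367. Its sums were 1.04, 16.1, 33.7 and 20.6 TPM, lowest in library 1, where the cluster was high. All 5 of its genes were highest in library 3, as the cluster was, against 41.8% of those 273 genes. Mir302c and Mir367 averaged less than 1 TPM and are outside the 273. The striated muscle list was Mir1a-1, Mir1a-2, Mir133a-1, Mir133a-2, Mir133b and Mir206. It summed to 342, 130, 122 and 224 TPM, with Mir1a-2 listed at 0 throughout. Mir206 alone had 327, 121, 101 and 216 TPM, so it set the pattern of that sum. Of the 5 genes above 0, 4 were highest in library 3 by TPM, Mir206 being the exception. Among the 273 genes the share highest there was 41.8%, and Mir133a-1, which averaged 0.356 TPM, is outside them. Endothelial Mir126a had 280, 436, 528 and 251 TPM, also highest in library 3. Liver Mir122 had 91.8, 23.5, 51.7 and 144 TPM, highest in library 4. The mesenchymal list had 1894, 2373, 1444 and 331 TPM, highest in library 2 and lowest in library 4, and as shares of the miRNA total 4.46%, 3.62%, 2.34% and 2.02%. The part of any of these cell types in the level of the cluster was not tested.

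**Figure D5:**
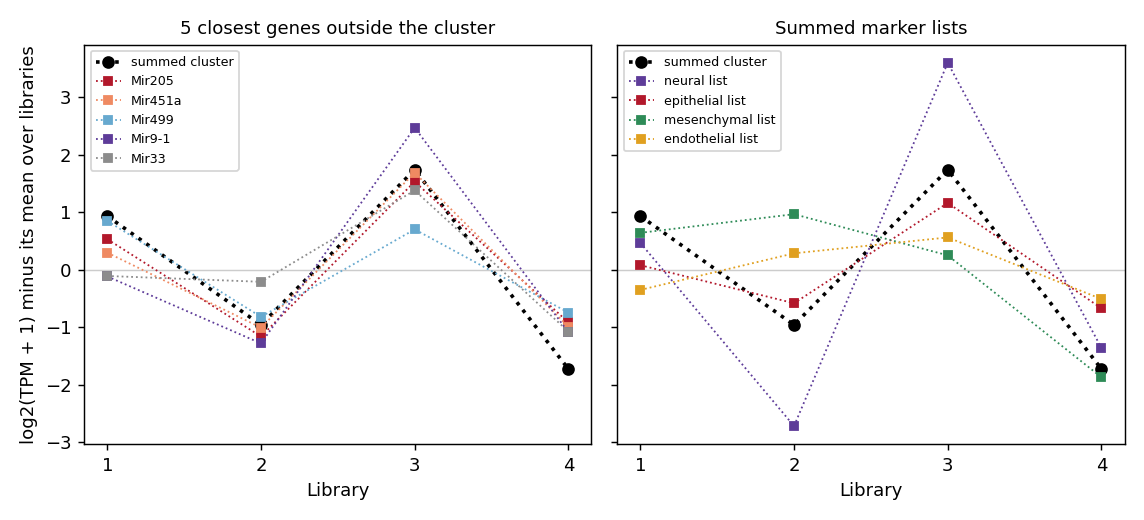
Values of log2(TPM + 1) minus their mean over the 4 libraries, for the summed cluster (black) with the 5 closest genes outside it (left) and with 4 summed marker lists (right); dotted lines only join the points of 1 profile. Mir205 and Mir451a lie nearest to the cluster. By TPM the neural list is likewise highest in library 3 but lowest in library 2, while the cluster is lowest in library 4. As shares of the miRNA total both are lowest in library 2, the neural list at 0.0575% and the cluster at 0.279%.

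The long non-coding RNA BB283400, also named Rncr4 (chr6:30176623-30178046), lies beyond the host's start and had a row in the table. It had 1 read in each of libraries 1, 2 and 3 and 0 in library 4, where 3 reads is taken as the limit that a count of 0 allows. BB283400 is 1424 bases long and the libraries are of small RNA, so these counts do not measure the level of the long RNA. Mir3475, whose 5p strand shares its seed with miR-96-3p, had 0.541, 1.12, 0.642 and 0.143 TPM, with 9, 15, 8 and 1 reads. Rows are hairpin genes, so the 5p and 3p strands could not be told apart.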

How the data were processed

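Small RNA was sequenced from 4 libraries of sorted cells with a small RNA kit, as single reads of 75 bp, per the labels' protocols. The authors deposited TPM values, with a row for each gene ID and a column for each library. The submitters' processing notes name mm10 (GRCm38) as the build and limma as a tool. No source used here names the aligner, the annotation, the handling of multiply mapping reads or the use of strand in counting, so values of similar sequences could be affected. The members and lists were chosen with earlier results of these data known.

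Gene IDs were joined to RefSeq GRCm38.p6 (2541 of 2976 rows matched). Reads were recovered from TPM multiplied by gene length, which gave whole numbers for 100% of nonzero miRNA values within a tolerance of 0.01. Library depth was 146255 to 1087240 miRNA reads; intervals are 95% Wilson intervals and, with the limit of 3 reads for a count of 0, cover counting error only. Ratios used a pseudocount of 1 TPM, which understates differences of low genes, and exact sign-flip tests. All miRNA genes with a mean of at least 1 TPM were fitted by limma 3.58.1 (R 4.3.3) with an intercept only and Benjamini-Hochberg adjustment at 0.05; this step was tested on simulated data. Named genes were the 8 genes most like the summed cluster, which include the 3 members, the neighbours in rank, the members of the neural and epithelial lists and genes sharing a seed. Members of the other marker lists are named with their sums, and Mir488 and BB283400 were named after their values were seen. Alternatives covered pseudocounts of 0.1 and 10 TPM, filters, rescaling, reads not divided by length and leaving out each library. Those for likeness and for the spread of ratios were chosen after the data were seen. Python 3.11.15, numpy 2.4.6, pandas 2.3.3, scipy 1.17.1 and matplotlib 3.10.9 were used.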

Additional observations from a re-analysis of the deposited data

Results flagged for a closer look

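None of the values of Mir183, Mir182 and Mir96 themselves, of their shares or of their ratios stood apart in 1 library by Dixon's test, at its 95% critical value for 4 values. In all, 41 sets of 4 values were examined, and chance flags about 1 in 20 of independent sets. These sets are not independent, since Mir9-3 makes up most of the neural sum. The 9 that stood apart, all by TPM, were markers set beside the cluster. In each the odd value was a high value in library 3. Library 3 held the highest TPM of 41.8% of the 273 miRNA genes. As a share of the miRNA total, the epithelial list was highest in library 4, at 0.265%. The gap from the odd value to the next, as a fraction of the whole range, was 0.897 for the summed neural list. Among neural genes it was 0.963 for Mir219a-1, 0.913 for Mir219a-2, 0.905 for Mir124a-3, 0.9 for Mir9-1, 0.89 for Mir9-3 and 0.852 for Mir137. Among epithelial genes it was 0.884 for Mir200a and 0.867 for Mir429. For the summed cluster it was 0.471, also with library 3 the highest.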

How the results depend on the processing

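The ratios between the 3 genes kept their direction under other pseudocounts, scalings and sets of libraries, but none could pass 0.05 with 4 libraries. Without library 3 the mean levels of Mir183, Mir182 and Mir96 were 184, 132 and 7.34 TPM, against 299.5, 226 and 15.0 TPM with it. The difference of Mir96 to the library median ran from -1.37 to -0.080 log2 units when a library was left out, and only without library 3 was it called (limma adjusted p = 0.0319). Without a filter on low values the median is that of many genes near 0, and Mir96 lay 3.07 log2 units above it (limma adjusted p = 0.0118). With a mean of at least 10 TPM it lay at -2.40 (limma adjusted p = 0.00791), and Mir182 was no longer called at 1.34 (limma adjusted p = 0.0536). Genes called above and below the median then numbered 60 and 60 of 170, against 109 and 101 of 273, and 258 and 220 of 643 with no filter. The log2 ratio of the cluster to the neural list ran from -0.10 without library 2 to 1.11 without library 3; the cause was not tested. With medians over members the ratio to the neural list was 5.27, a value that can depend on how reads were assigned to gene copies. The ratio to the epithelial list was then 3.62 against 2.33. Depth limits Mir96 most, with 45 reads in library 4. Ratios between genes were taken within each library, but no pairing between conditions was possible because the series has 1 group.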
